A study of Mus musculus with 57 samples.

Results

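The 9 genes described here encode the machinery by which a cell shows peptides on major histocompatibility complex (MHC) class I. They are the heavy chain genes H2-D1, H2-K1 and H2-T23, the light chain gene B2m, the peptide transporter genes Tap1 and Tap2, the loading factor gene Tapbp, the peptide trimming gene Erap1 and the regulator gene Nlrc5. They were chosen by name for their roles, and all 9 were found among the 12887 gene rows of the table of single cells. The cells were of RM1536, a derivative of the RM1 mouse prostate cancer line that carries cerulean fluorescent protein (eCFP) and firefly luciferase. They were stained with the membrane dye PKH26, which is diluted as cells divide, and were injected into the heart of C57BL/6 mice. Cells sorted from bone were dormant where they had kept the dye and proliferating where they had lost it. The 28 dormant cells came from 6 mice and the 29 proliferating cells from 6 mice, and mice 369, 452, 1185 and 360 gave cells of both states.

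The endpoints of the mice lay between day 13 and day 26 after injection. Dormant cells numbered 11 in mouse 1185, 6 in mouse 369, 5 in mouse 1184, 3 in mouse 452, 2 in mouse 360 and 1 in mouse 244. Proliferating cells numbered 13 in mouse 369, 6 in mouse 452, 4 in mouse 1185, 3 in mouse 360, 2 in mouse 268 and 1 in mouse 288. All cells shared the line, the fluorescent and luciferase genes, the staining and the host strain, and no uninjected control was analysed here. Sequencing libraries were made in batches of 1 state each, so the library batch and the state cannot be told apart. The mouse was the replicate, because cells of 1 mouse are not independent.

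In class I presentation, proteasomes cut cytosolic proteins into peptides, and the TAP transporter, a pair of Tap1 and Tap2 chains, pumps them into the endoplasmic reticulum. There Erap1 trims them, and tapasin, the product of Tapbp, holds an empty heavy chain and beta-2 microglobulin near the transporter until a peptide binds. CD8 T cells read the H2-K1 and H2-D1 complexes, and the H2-T23 product, Qa-1, is a ligand of CD94 and NKG2 receptors on natural killer cells. Interferons raise many of these genes, Irf1 is one of the factors that act on them, and Nlrc5 acts at the class I promoters. Leukocytes of the marrow express class I genes too, so the level of these genes alone does not tell a tumour cell from a leukocyte.

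Class I promoters are known for an enhancer with kappa B and interferon response elements, and promoter sequence of the heavy chain genes and of B2m is shown here because these 4 members had the highest median levels per kb of transcript in labelled cells. H2-K1 (minus strand) and B2m (plus strand) are printed as the 200 bases before the start of the transcript (for H2-K1, 1 of 2 RefSeq starts), 5′ to 3′, from RefSeq on GRCm38.p6, at chr17:34000348-34000547 and chr2:122147487-122147686. Capitals mark 4 kinds of match, each searched on both strands. The first in H2-K1 is the kappa B element of enhancer A. The second is the core of an interferon response element, TTTC, any 2 bases and TTTC again, or the shorter TTTCNNTTC. The others are TGACG, the core of cyclic AMP response elements, and CCAAT.
H2-K1 promoter: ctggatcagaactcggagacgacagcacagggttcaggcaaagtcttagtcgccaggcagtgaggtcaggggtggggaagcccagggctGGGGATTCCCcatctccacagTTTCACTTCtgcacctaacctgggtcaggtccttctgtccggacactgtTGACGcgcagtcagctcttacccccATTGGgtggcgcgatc
B2m promoter: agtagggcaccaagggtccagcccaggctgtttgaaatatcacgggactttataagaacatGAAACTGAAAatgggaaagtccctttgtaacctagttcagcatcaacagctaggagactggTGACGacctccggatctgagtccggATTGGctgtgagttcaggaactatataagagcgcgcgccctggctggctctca

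The stretch that joins the kappa B element to the interferon core was nearly the same in H2-K1 and H2-D1, and 30 bases of each of 4 members are set side by side for this reason. The H2-K1 stretch lies at chr17:34000429-34000458 (minus strand), the H2-D1 stretch at chr17:35262923-35262952 (plus), the B2m stretch at chr2:122147538-122147567 (plus) and the H2-T23 stretch at chr17:36032806-36032835 (minus). Capitals again mark the kappa B and interferon core matches. The H2-D1 and H2-T23 stretches lie before the RefSeq start but inside the gene as GENCODE draws it, and 200 and 154 of the 200 bases of these promoters are in GENCODE exons of the gene itself.
H2-K1 element: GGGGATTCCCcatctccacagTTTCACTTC
H2-D1 element: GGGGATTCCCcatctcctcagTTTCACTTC
B2m element: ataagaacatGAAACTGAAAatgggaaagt
H2-T23 element: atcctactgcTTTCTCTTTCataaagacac

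The H2-K1 and H2-D1 stretches were identical at 29 of 30 bases, and the substitution was A18T (the H2-K1 base, its position from the 5′ end, then the H2-D1 base). RefSeq promoters were matched for 7 of the 9 members, with no entry for Tap2 and Nlrc5. Among 32851 RefSeq promoters of the same 200-base length, 0.067% held the kappa B element, which among the members was in H2-K1 and H2-D1. The letters searched are those of an enhancer already known from class I promoters, so this match is no test of the members. The longer interferon core was in 2.27% of all promoters and in B2m and H2-T23, and the shorter core, whose letters the longer one does not contain, was in 5.0% of all promoters and in H2-K1 and H2-D1. TGACG was in 15.7% of all promoters and in 4 of the 7 members, and CCAAT was in 29.3% and 5. A match describes the letters and is neither a bound site nor a cause of a level.

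In GRCm38 coordinates of GENCODE, 6 members lie on chromosome 17. H2-D1 spans 35262730 to 35267499, H2-K1 33996017 to 34000347, H2-T23 36029773 to 36032855, Tap1 34187553 to 34197225, Tap2 34203527 to 34216321 and Tapbp 33915899 to 33929292. B2m lies on chromosome 2 from 122147686 to 122153083, Nlrc5 on chromosome 8 from 94434356 to 94527272 and Erap1 on chromosome 13 from 74639568 to 74693201. All 9 are protein-coding, and each value is for the whole gene. Of the 50-base windows of the transcripts, 28.8% of those of H2-T23, 14.3% of H2-D1 and 8.79% of H2-K1 were shared with other genes, so reads can be split among heavy chain genes and these 3 values are uncertain to that extent. For Tap1, Tap2 and Tapbp the shares were 0.861%, 0.737% and 2.0%, and for B2m, Nlrc5 and Erap1 they were 0. H2-D1 and H2-K1 overlap no other annotated gene, and the other 7 members do on part or all of their length, with pairs such as A930015D03Rik over H2-T23, Patl2 over B2m, Psmb9 over Tap1 and Cast over Erap1, and the strand used in counting is not given in the sources used here, so reads of such pairs cannot be told apart.

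The cells were read in 3 classes, because the tumour label was not present throughout. In 6 dormant cells, from 4 mice, eCFP was under 100 normalised reads (0 to 87.6), while it was 349 to 5256 in the other 22 dormant cells and 327 to 3230 in the proliferating cells. The 6 are called low-label cells here. They had 11 to 18 of 18 pan-leukocyte genes above 0, with a summed level of 40139 to 90774, Lyz2 at 52145 to 188632 and class II genes at a summed 56.4 to 16024. The 4 tumour genes other than eCFP (Luc2, Krt8, Krt18 and Krt19) summed to 2.27 to 232 in them, with Krt19 listed at 0, against 3866 to 39891 in labelled dormant and 3396 to 37107 in proliferating cells. Luc2 alone was 2.27 to 230.5, 1850 to 26410 and 1994 to 16708 in that order. By these markers, which did not define the class, the low-label cells did not bear out the tumour label, and results are therefore given with and without them. Among labelled cells, pan-leukocyte genes above 0 had a median of 3.5 (0 to 18) in dormant and 2 (0 to 15) in proliferating cells, and 9 of 22 and 7 of 29 cells had at least 5, called leukocyte-rich here. The name counts genes above 0 at any level. Summed pan-leukocyte levels were 11.3 to 20927 in leukocyte-rich and 0 to 405 in the other labelled dormant cells. In proliferating cells they were 5.86 to 1642 and 0 to 1373. Summed levels thus overlap, and cells that are not leukocyte-rich are not free of leukocyte transcripts. Between 945351 and 5306777 reads and 2399 and 10509 genes above 0 were recovered per cell. Spike-in features above 0 numbered 18 to 34 in 21 dormant and 20 proliferating cells and 40 to 48 in 7 dormant and 9 proliferating cells, the latter from mice 369, 244 and 288.

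The classical heavy chain transcripts were found in nearly every cell and H2-T23 in 43 of 57, and the medians of all 3 genes were highest in the low-label cells. H2-D1, a classical heavy chain gene, was above 0 in 56 of 57 cells. Its lowest, median and highest levels were 2375, 7210 and 25923 normalised reads in the 6 low-label cells, 146, 1342 and 11926 in the 22 labelled dormant cells, and 0, 1080 and 15630 in the 29 proliferating cells. The classes overlapped, since 6 labelled dormant and 9 proliferating cells exceeded the lowest low-label cell. H2-K1, the other classical gene, was above 0 in 52 of 57 cells. Its lowest, median and highest levels were 480, 2345 and 21306 in low-label cells, 0, 493 and 3088 in labelled dormant cells, and 0, 374 and 11313 in proliferating cells. The highest labelled values of both genes were in proliferating cells, while the class medians of labelled dormant and proliferating cells lay close together. H2-T23, the Qa-1 gene, was above 0 in 5 of 6 low-label, 18 of 22 labelled dormant and 20 of 29 proliferating cells. Its medians were 568, 115 and 68.8 in that order, with highest values of 5074, 702 and 1082.

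**Figure D1:**
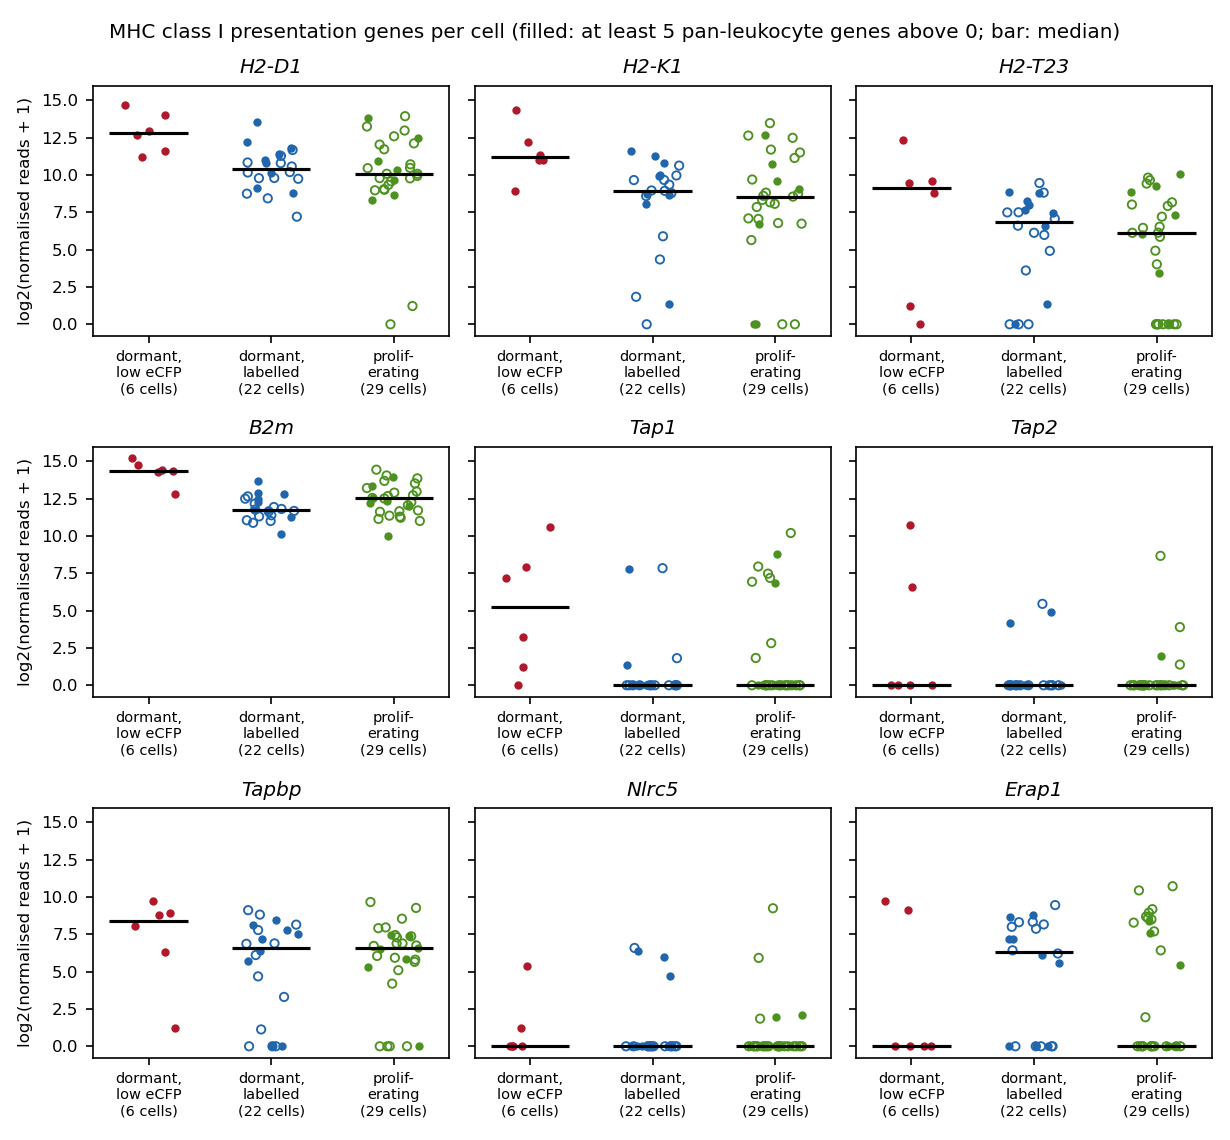
Level of each of the 9 members in each cell as log2(normalised reads + 1), by class (6 low-label dormant, 22 labelled dormant and 29 proliferating cells), with filled points for leukocyte-rich cells and a bar at the median. B2m and H2-D1 are above 0 in nearly all cells, and Tap1, Tap2 and Nlrc5 are at 0 in most labelled cells.

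B2m, the light chain gene that every class I heavy chain needs, was above 0 in 57 of 57 cells. Its lowest, median and highest levels were 7146, 21155 and 37484 normalised reads in low-label cells, 1101, 3485 and 12979 in labelled dormant cells, and 997, 5817 and 22175 in proliferating cells. In contrast to the heavy chains, the median of labelled cells was higher in the proliferating class, and 10 proliferating but 3 labelled dormant cells exceeded the lowest low-label cell. The ranges of labelled dormant and proliferating cells overlapped over most of their length.

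The transporter genes were scarce in labelled cells. Tap1 was above 0 in 5 of 6 low-label cells, in 4 of 22 labelled dormant cells (18.2%, exact Clopper-Pearson 95% interval 5.19% to 40.3%) and in 9 of 29 proliferating cells (31.0%, 15.3% to 50.8%). Both intervals cover counting error only, not the variation from mouse to mouse. The highest Tap1 level was 1569 in low-label, 228 in labelled dormant and 1171 in proliferating cells. Tap2 was above 0 in 2 of 6, 3 of 22 and 4 of 29 cells, with highest levels of 1738, 42.8 and 405. At this depth a transcript listed at 0 in a cell was not detected, which does not show that the cell lacked it.

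Tapbp, the tapasin gene, was above 0 in 6 of 6 low-label, 17 of 22 labelled dormant and 24 of 29 proliferating cells, with medians of 351, 98.1 and 95.5. Erap1, the trimming aminopeptidase gene, was above 0 in 2 of 6, 14 of 22 and 14 of 29 cells, with medians of 0, 78.9 and 0 and highest levels of 835, 700 and 1681. Erap1 was the 1 member above 0 in a smaller share of low-label than of labelled dormant cells, a difference that was not tested. Nlrc5 was above 0 in 2 of 6, 4 of 22 and 5 of 29 cells, with highest levels of 41.3, 94.9 and 604. The number of members above 0 in a cell had a median of 7 in low-label cells (4 to 9), 6 in labelled dormant cells (3 to 9) and 5 in proliferating cells (1 to 9).

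Scaled to 1 kb of transcript, the members could be placed in an order within labelled cells. In labelled dormant cells the median level per kb was 4053 for B2m, 639 for H2-D1, 304 for H2-K1, 77.8 for H2-T23, 33.9 for Tapbp and 14.0 for Erap1, and it was 0 for Tap1, Tap2 and Nlrc5. In proliferating cells the medians per kb were 6764 for B2m, 514 for H2-D1, 231 for H2-K1, 46.7 for H2-T23, 32.9 for Tapbp and 0 for Erap1, Tap1, Tap2 and Nlrc5. The order of the first 5 members was the same in both classes. In labelled dormant cells the B2m levels per kb between the quartiles (2984 to 6336) lay above those of H2-D1 (410 to 1131), while those of H2-D1 and H2-K1 (181 to 616), and those of H2-T23 (10.6 to 163) and Tapbp (1.07 to 75.3), overlapped.

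The median levels of the heavy chain genes and B2m were higher in the labelled dormant cells that were leukocyte-rich than in the others, while Erap1 was not (66.9 and 84.9). In the 9 leukocyte-rich and the 13 other labelled dormant cells, the medians were 2075 and 1146 for H2-D1, 994 and 489 for H2-K1, 205 and 68.8 for H2-T23, and 5003 and 3263 for B2m. In the 7 leukocyte-rich and the 22 other proliferating cells, the medians were 1267 and 1078 for H2-D1, 535 and 347 for H2-K1, and 5214 and 5888 for B2m. H2-D1 was above 0 in 13 of 13 labelled dormant and 21 of 22 proliferating cells that were not leukocyte-rich, and B2m in 13 of 13 and 22 of 22. In those labelled dormant cells Coro1a, Spi1, Cd52, Cybb, Vav1, Cd37 and Cd48 were listed at 0, with a summed pan-leukocyte level of 0 to 405. The part of leukocyte RNA in the higher medians was not tested.

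Over all mice, the per-mouse means of log2(normalised reads + 1) put each of the 9 members higher in dormant than in proliferating cells, and none passed limma's test after adjustment over all genes. Because cells listed at 0 were averaged in, these differences mix the share of cells with the transcript and its level in them. The dormant H2-D1 means were 12.95 in mouse 244, 12.94 in 360, 12.19 in 1184, 11.18 in 369, 9.93 in 1185 and 9.66 in 452. The proliferating means were 11.63 in mouse 369, 9.91 in 360, 9.71 in 452, 9.01 in 288, 8.02 in 1185 and 5.46 in 268. The dormant means of mice 244, 360 and 1184 lay above all proliferating means, and the others overlapped them. The 2 highest rest on low-label cells alone, 1 in mouse 244 and 2 in mouse 360, each with 18 of 18 pan-leukocyte genes above 0. Of the 5 cells of mouse 1184, 1 was low-label and 3, with that cell among them, were leukocyte-rich. Its labelled cells 104 and 105 had 13 and 18 of the 18 genes above 0, Lyz2 at 48048.5 and 95205, and H2-D1 at 3604 and 11926. The state means were 11.48 ± 1.46 (SD, n = 6) and 8.96 ± 2.08 (SD, n = 6). The difference was 2.52 (SE 0.81), with an unadjusted limma p of 0.00481 and an adjusted p of 0.437.

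H2-T23 means ranged from 4.71 to 9.60 (median 5.70) in dormant and from 0 to 6.10 (median 3.54) in proliferating cells, with the highest dormant mean in the single low-label cell of mouse 244. The difference was 2.66 (SE 1.23), with an unadjusted limma p of 0.0399 and an adjusted p of 0.497. H2-K1 means ranged from 3.75 to 10.996 (median 9.67) and from 4.53 to 10.30 (median 6.68), with the lowest dormant mean in mouse 452, below all proliferating means. Its difference was 1.94 (SE 1.15, limma adjusted p = 0.625). B2m had narrower ranges than the heavy chain genes, 11.59 to 14.54 (median 12.84) and 11.14 to 12.72 (median 12.47), and differed by 0.51 (SE 0.45, limma adjusted p = 0.757). The dormant B2m mean of mouse 360, the highest, rests on 2 low-label cells.

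The differences of the members of transport, loading, trimming and regulation were 1.22 (SE 1.45) for Tapbp, 1.09 (SE 0.94) for Tap1, 0.95 (SE 0.58) for Tap2, 0.65 (SE 1.40) for Erap1 and 0.57 (SE 0.53) for Nlrc5, with limma adjusted p-values of 0.638 to 0.918. Of all 11843 genes tested, 36.9% had a difference above 0, against 9 of 9 members, and the median difference was 1.09 for the members and −0.35 for all genes. At an unadjusted limma p under 0.05, 2 of the 9 members were higher in dormant cells, H2-D1 and H2-T23, against 3.28% of all genes, and the count was 1 without any one of mice 1184, 1185, 244, 268 or 288, and 0 without low-label cells or without leukocyte-rich cells. The share lower at that level was 6.22% of all genes and 0 of the 9 members. After adjustment limma called 0 of 11843 genes (389 and 737 had a higher or lower value before it). On recovered reads edgeR also called 0 (665 and 118 before adjustment). DESeq2 called 2.48% of genes as higher and 0.0676% as lower, 302 in all and none of them a member, with an adjusted p of 0.163 for H2-D1. No member had every dormant mean above every proliferating mean, which held for 0.0422% of genes.

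**Figure D2:**
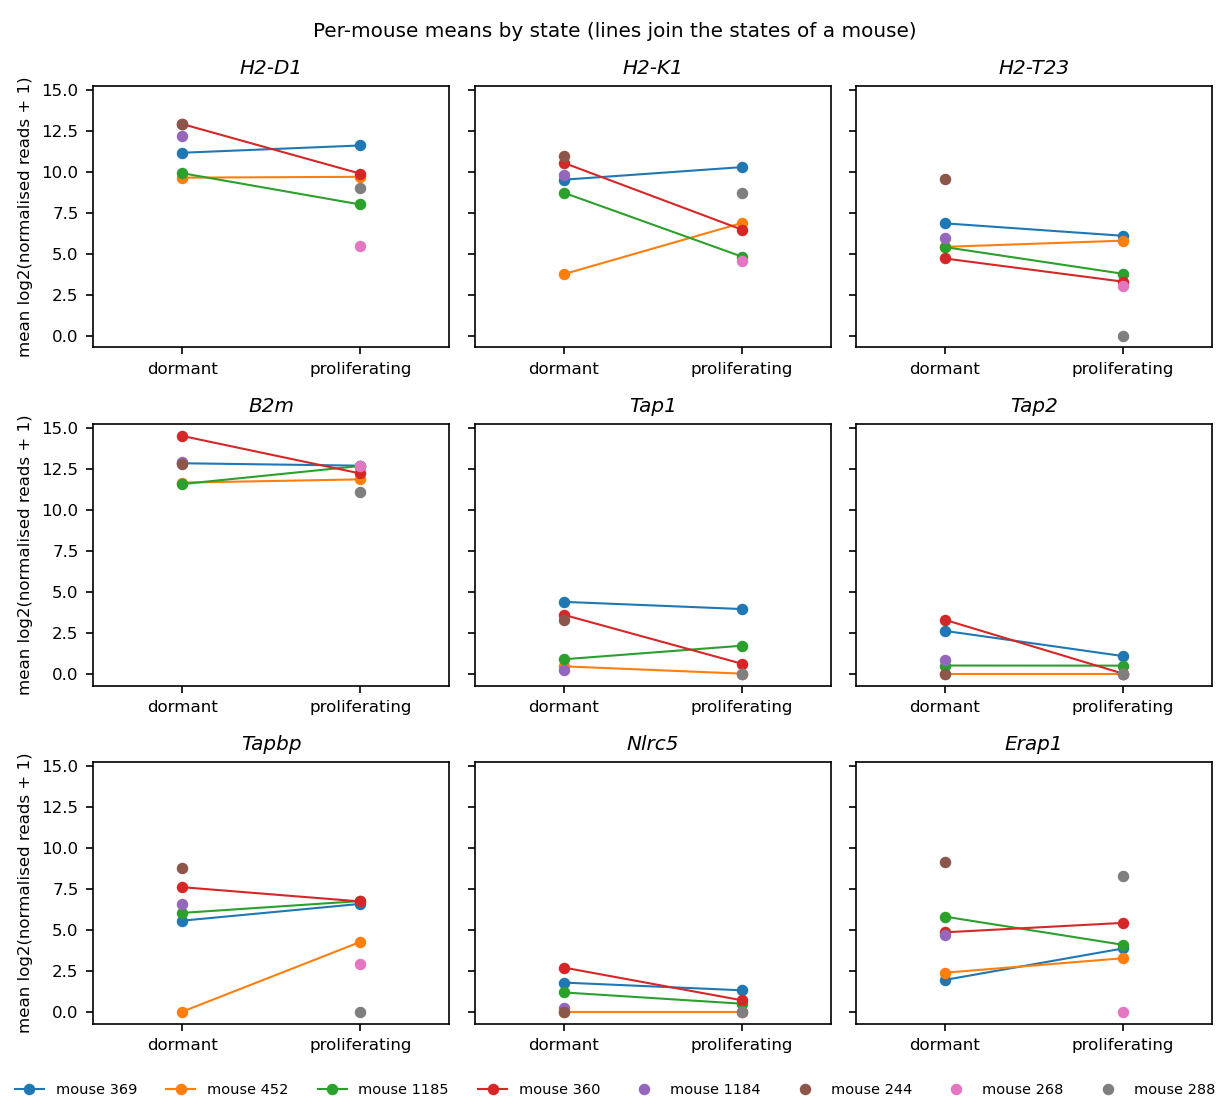
Mean log2(normalised reads + 1) over the cells of each mouse and state for the 9 members, with 6 dormant and 6 proliferating means and lines that join the states of the 4 mice with both. The H2-D1 lines of mice 1185 and 360 fall from dormant to proliferating, while those of mice 369 and 452 do not. The proliferating mean of mouse 369 takes in 5 cells with 18 to 25 spike-in features, while all its dormant cells had 40 to 45.

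In the 4 mice with both states, the comparison was made within the mouse. The H2-D1 difference, dormant minus proliferating, was 3.03 in mouse 360, 1.91 in 1185, −0.050 in 452 and −0.44 in 369. Thus 2 mice had more H2-D1 in dormant cells and the other 2 nearly equal or less, and the fitted difference was 1.11 (SE 0.64, limma adjusted p = 0.554). H2-K1 differed by 4.08 in mouse 360, 3.91 in 1185, −0.77 in 369 and −3.13 in 452, so its direction was opposite between pairs of mice (fitted 1.02, SE 1.18, limma adjusted p = 0.739). In mouse 369, all 6 dormant cells had 40 to 45 spike-in features above 0, but 5 of 13 proliferating cells had 18 to 25. Median H2-D1 and H2-K1 were 9689 and 6359 in those 5, against 1546 and 367 in the other 8. The negative differences of mouse 369 therefore mix the state with the number of spike-ins. B2m differed by 2.30 in mouse 360, 0.15 in 369, −0.20 in 452 and −1.11 in 1185 (fitted 0.28, SE 0.50, limma adjusted p = 0.833). Mouse 360, with 2 dormant cells that were both low-label, had the largest dormant excess for H2-D1, H2-K1 and B2m. Without that mouse the fitted differences were 0.47 for H2-D1, 0.0034 for H2-K1 and −0.39 for B2m. H2-K1 was 0.062 without mouse 1185, 1.62 without 369 and 2.41 without 452, and B2m was 0.75 without 1185 and 0.45 without 452.

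H2-T23, Tap1, Tap2 and Nlrc5 were higher in dormant cells in 3 of the 4 mice, a pattern shown by 11.9% of the 11565 genes tested within mice in at least 3 of 4. Their fitted differences were 0.86 (SE 1.08), 0.76 (SE 0.97), 1.21 (SE 0.71) and 0.79 (SE 0.64), with limma adjusted p-values of 0.759, 0.760, 0.554 and 0.640. Tap2 and Nlrc5 were listed at 0 in every cell of mouse 452. Tap2 differed by 3.29 in mouse 360, 1.54 in 369 and 0.0070 in 1185, the last nearly equal. Tap1 differed by 2.99 in mouse 360, 0.45 in 452, 0.44 in 369 and −0.83 in 1185. The Tap1 value of mouse 452 rests on dormant cell 50, at 1.53 normalised reads, and the dormant cells of mouse 360 were low-label. Without low-label cells the fitted differences were −0.80 for Tap1 and 0.056 for Tap2. Without mouse 360 Tap1 differed by 0.020, Tap2 by 0.52 and Nlrc5 by 0.39, and without mouse 1185 Tap1 differed by 1.29. Tapbp and Erap1 were lower in dormant cells in 3 of the 4 mice, by −1.29 (SE 1.17) and −0.42 (SE 1.14), with limma adjusted p-values of 0.670 and 0.893. Tapbp was −2.01 without mouse 360 and −0.29 without 452. Within mice 7 of 9 members were above 0, against 23.5% of all genes, and the medians were 0.79 and −0.72. No gene passed limma's adjusted threshold within mice, and 0 members had an unadjusted p under 0.05 (1.03% of all genes were higher and 8.21% lower).

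The direction of 5 of the 9 members over all mice depended on which cells entered the means. Without the 6 low-label cells, 4 dormant means remained against 6, and 6 of 9 members were above 0 over all mice against 54.5% of all genes. H2-D1 then differed by 1.56 (SE 0.90), H2-T23 by 2.09 (SE 1.28), H2-K1 by 0.51 (SE 1.29), Tap2 by 0.43, Nlrc5 by 0.55 and Erap1 by 0.084, while B2m differed by −0.28, Tap1 by −0.23 and Tapbp by −0.073. The median was 0.43 for the members and 0.090 for all genes. Without the leukocyte-rich cells, Tap2 and Nlrc5 fell below the filter on low values and 2 of the other 7 members were above 0, against 62.2% of all genes. H2-D1 differed by 2.13 (SE 1.77) and H2-T23 by 2.31 (SE 1.66), and the others lay below 0, from −0.19 for H2-K1 to −0.93 for Erap1, with a median of −0.44 for the members and 0.35 for all genes.

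Within mice, the same was done with 3 dormant and 3 proliferating means. Without low-label cells H2-D1 differed by 0.21 (SE 0.60), H2-T23 by 0.056 (SE 1.07), H2-K1 by −0.52 (SE 1.20) and B2m by −0.70 (SE 0.33). Of the 9 members, 4 were above 0 against 43.9% of all genes. Without leukocyte-rich cells H2-D1 differed by 0.17 (SE 0.95), H2-T23 by 0.24 (SE 1.80), H2-K1 by −2.34 (SE 1.80) and B2m by −0.94 (SE 0.33). Here 2 of 7 members were above 0 against 39% of all genes. At an unadjusted limma p under 0.05, 1 of 9 members was then lower in dormant cells without low-label cells (Tapbp, −2.56, p = 0.0335), against 2.09% of all genes. Without leukocyte-rich cells it was 2 of 7, B2m (p = 0.0105) and Tapbp (−4.11, p = 0.0322), against 2.68%. The limma adjusted p was 0.999 for each of these. Low-label and leukocyte-rich cells are defined by other genes of the same libraries, so these values describe the sets of cells, and what the removed cells contributed was not tested in any other way.

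**Figure D3:**
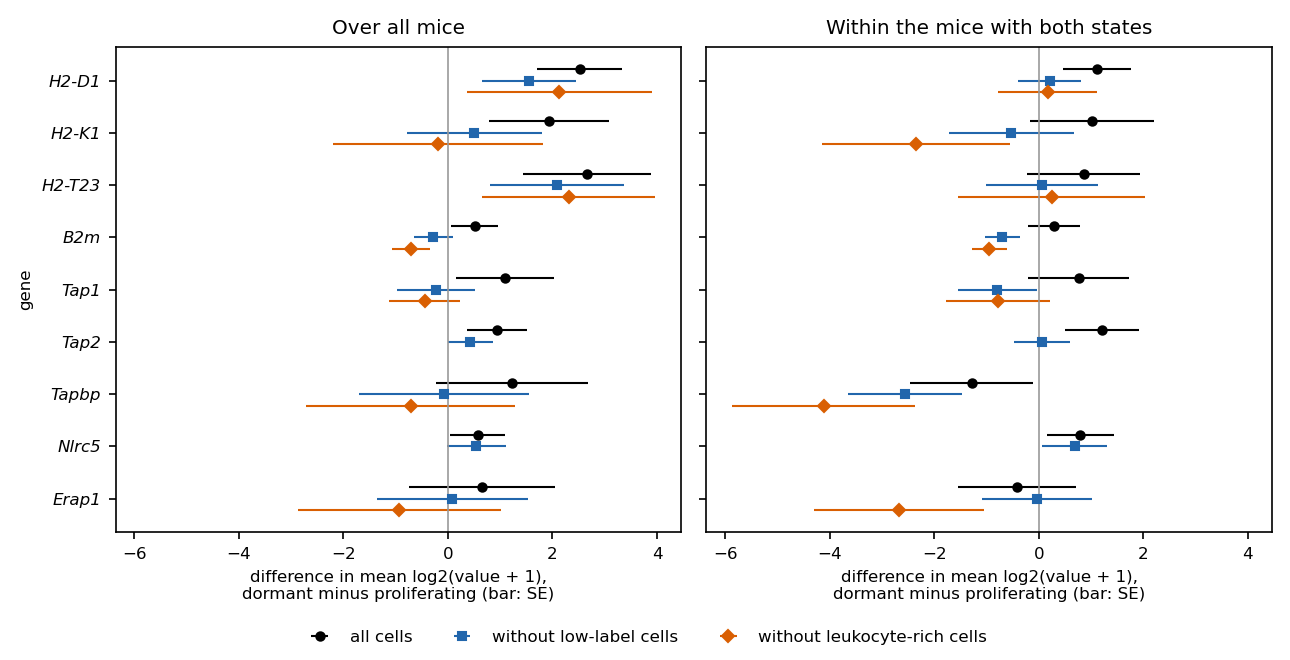
Dormant minus proliferating difference of log2(normalised reads + 1) with its standard error for the 9 members, over all mice and within mice, with all cells, without low-label cells and without leukocyte-rich cells. H2-D1 and H2-T23 stay above 0 in each setting shown, but within mice by less than their standard error once low-label or leukocyte-rich cells are left out. B2m and Tap1 lie below 0 once either set of cells is left out.

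Proliferating cells of mouse 369 fell into a set with 18 to 25 spike-in features above 0 and a set with 40 to 45, and class I levels differed between the sets. In the 5 cells with fewer spike-ins, H2-D1 was 4426, 9689 and 15630 (lowest, median and highest), H2-K1 2900, 6359 and 11313, and B2m 10627, 14805 and 22175. In the 8 cells with more spike-ins, H2-D1 was 501, 1546 and 8038, H2-K1 106, 367 and 5730, and B2m 2052, 3179 and 11733. For each of these 3 genes, 7 of the 8 cells lay below the lowest of the 5, and 1 cell did not. H2-T23 had medians of 800 and 42.0, with 6 of 8 cells below the lowest of the 5, and Psmb8, a subunit of the inducible proteasome, medians of 558 and 107, also with 6 of 8 below. Tapbp had 5 of 8 below, Psmb10 1 of 8, and Tap1, Tap2, Nlrc5, Erap1 and Psmb9 0 of 8, since in each of these 5 the lowest of the 5 cells was at 0. Irf1 ran the other way, with medians of 293 and 626. Mki67, a gene of dividing cells, had medians of 434 and 21.1, with 2 of 8 below. Pan-leukocyte genes above 0 numbered 1 to 5 and 0 to 4 in the sets, eCFP was 1164 to 2254 and 824 to 1546, and genes above 0 had medians of 8311 and 7665. The labels do not name the sets, so whether the library or the cell differed cannot be told apart.

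The 1 cell of the 8 that stood apart had the highest mean of the 9 members among all 57 cells, 10.47 on the log2 scale, and was singled out after its values were seen. All 9 members were above 0 in it, with H2-D1 at 8038, H2-K1 at 5730, B2m at 11733, Tap1 at 1171, Tap2 at 405, Tapbp at 614, Nlrc5 at 604 and Erap1 at 359. It held the highest Tap1, Tap2 and Nlrc5 levels of any labelled cell, along with Psmb8 at 1589, Psmb9 at 597, Psmb10 at 697 and Irf1 at 2243. The tumour label was present in it, with eCFP at 984 and Luc2 at 3005, while Ptprc and Cd74 were listed at 0, Lyz2 was 1.39 and 2 of 18 pan-leukocyte genes were above 0.

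At matched spike-in numbers, mouse 369 also allowed labelled dormant cells to be set beside proliferating cells. The 4 labelled dormant cells had medians of 1323 for H2-D1, 534 for H2-K1, 103 for H2-T23 and 4510 for B2m. The 8 proliferating cells had 1546, 367, 42.0 and 3179, and the ranges overlapped for each gene. Of the 4 labelled dormant cells, cells 26 and 29 each had 16 of 18 pan-leukocyte genes above 0, with H2-K1 at 1010 and 3088. Cells 37 and 38 had 0 and 3 such genes, with H2-K1 at 58.4 and 19.3. H2-T23 was 176 and 205 against 29.2 and 0, so both medians lie between unlike cells. The 8 proliferating cells had 0 to 4 such genes. The means over all mice were also fitted within the spike-in ranges. With fewer than 37 features, H2-D1 differed by 1.93 (SE 1.12), H2-T23 by 0.38, B2m by 0.010 and Tap1 by −0.41. With at least 37 (2 dormant and 2 proliferating means), H2-D1 differed by 2.22 (SE 0.66), H2-T23 by 6.13 (SE 3.02) and B2m by 1.27, with limma adjusted p-values of 0.134, 0.809 and 0.499. Besides mouse 369, these means were the 1 cell of mouse 244, which was low-label, and the 1 proliferating cell of mouse 288. H2-T23 was 9.60 and 0 in these 2 cells.

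**Figure D4:**
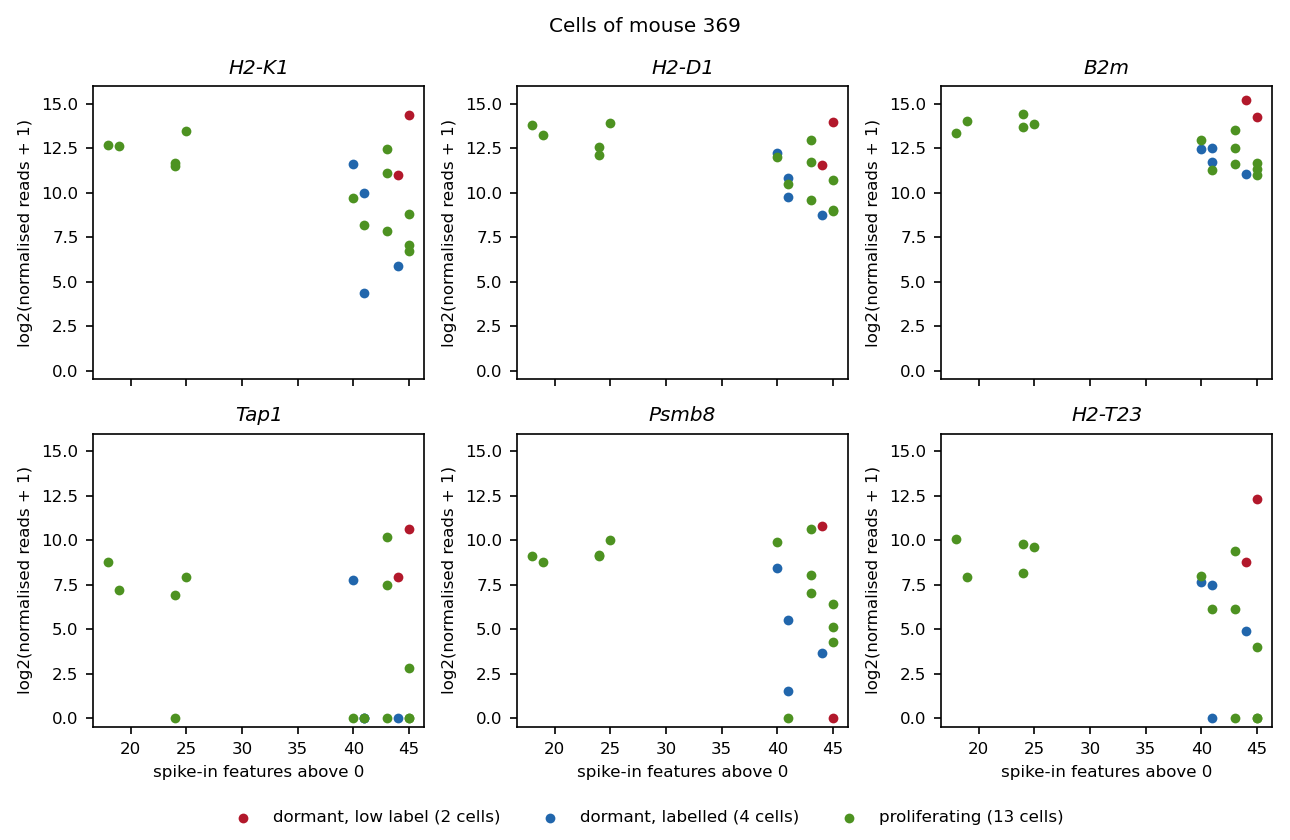
Level of 6 genes in the cells of mouse 369 as log2(normalised reads + 1) against the number of spike-in features above 0, with 2 low-label dormant, 4 labelled dormant and 13 proliferating cells. The 5 proliferating cells with 18 to 25 features lie above 7 of the 8 with 40 to 45 for H2-K1, H2-D1 and B2m.

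Across cells, the heavy chain genes varied together, as a description over cells that share mice, libraries and depth. Spearman's rho between H2-D1 and H2-K1 was 0.87 over 57 cells, 0.85 over the 51 labelled cells and 0.88 over the 29 proliferating cells, in genes whose reads may be split between them. H2-D1 with H2-T23 had a rho of 0.70 and 0.71 over all and labelled cells, H2-D1 with B2m 0.62 and 0.53, and H2-D1 with Tap1 0.64 and 0.57. All 36 pairs of members were positive over all cells, from 0.079 (B2m with Nlrc5) to 0.87, with a median of 0.43. Over labelled cells the median was 0.38 (0.033 to 0.85), and over the labelled cells with fewer than 37 spike-ins it was 0.30 (−0.034 to 0.81), with 33 of 36 positive. Erap1 and Nlrc5 were least like the others, with a rho of 0.20 and 0.29 with H2-D1 over all cells, and they were above 0 in 30 and 11 of the 57 cells. Tap2 and Tap1, above 0 in 9 and 18 cells, had a rho of 0.50 and 0.64 with H2-D1. How the cells at 0 shape these values was not tested, and a weak rho does not show a lack of relation. H2-D1 also followed the number of genes above 0, with a rho of 0.27 over all and 0.46 over labelled cells.

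The tumour label was weakly related to class I levels among labelled cells. The rho of eCFP with H2-D1 was −0.037 over all 57 cells, 0.25 over the 51 labelled cells and 0.39 over the 29 proliferating cells, and with H2-K1 it was 0.019 and 0.28. With B2m it was −0.39 over all cells, where the low-label cells hold both low eCFP and high B2m, −0.19 over labelled cells and 0.17 over proliferating cells. The mean of the 9 members had a rho with eCFP of −0.011 and 0.16 over all and labelled cells.

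**Figure D5:**
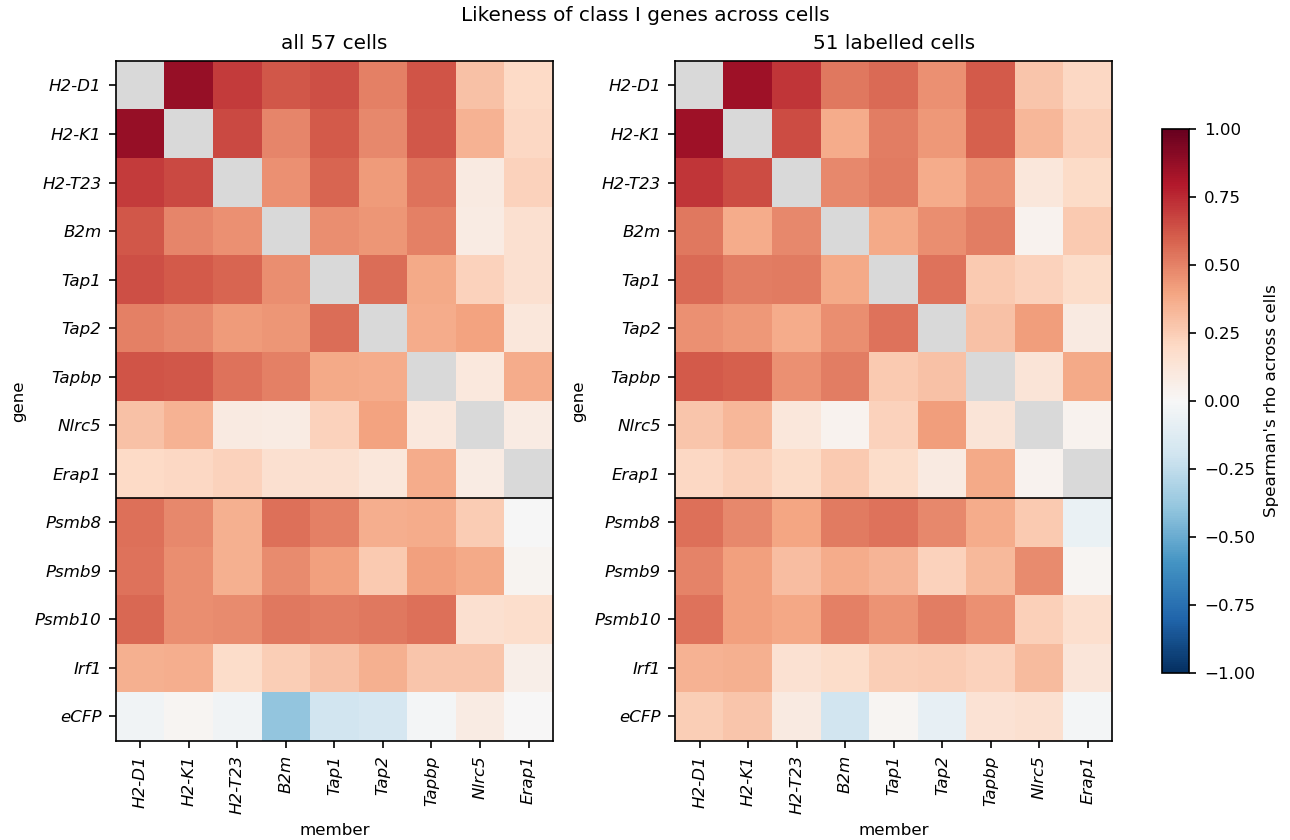
Spearman's rho across cells between each member (columns) and the members, 4 other class I pathway genes and eCFP (rows), over all 57 cells and over the 51 labelled cells. The darkest field is H2-D1 with H2-K1 (0.87 and 0.85), and the eCFP row runs from −0.39 to 0.080 over all cells and from −0.19 to 0.28 over labelled cells.

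Among 7554 genes above 0 in at least 29 cells, the 5 whose pattern was most like the mean of the 9 members over all 57 cells included Lgals3bp (rho 0.65), Rnf34 (0.64), Slc6a6 (0.63) and Cdk11b (0.63). Over the 51 labelled cells the 5 included Lgals3bp (0.73), Tmem109 (0.70), Rad9a (0.69) and Ubr4 (0.68). Lgals3bp, a secreted glycoprotein that binds galectins, was among the 5 in both sets. The median rho of all these genes was 0.15 and 0.21, and the 95th percentile 0.40 and 0.46. The mean of the 9 members had a rho with the number of genes above 0 of 0.49 over all and 0.61 over labelled cells, above both percentiles. What the number of genes detected per cell adds to these ranks was not tested.

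Other genes of the pathway, from a list of 52 of which 43 were tested, did not pass limma's adjusted test in either direction. Over all mice 27 were above and 16 below 0, where 36.9% of all genes were above 0, with a median of 0.42 against −0.35 for all genes. At an unadjusted limma p under 0.05, 1 of the 43 was higher and 2 were lower. The shares of all genes at that level were 3.28% and 6.22%, so these counts do not set the list apart. Within mice 15 were above and 26 below 0 of 41 tested, where 23.5% of all genes were above 0, with a median of −0.39 against −0.72. The 5 inducible proteasome genes were all above 0 over all mice, with Psmb9 at 1.74 (SE 1.28), Psmb10 at 1.68 (SE 1.35) and Psmb8 at 1.53 (SE 1.68), while within mice 2 were above and 3 below 0. Irf1, an interferon-induced activator, differed by −0.18 (SE 1.65) over all mice and by 1.48 within mice.

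Of the 6 loading and folding genes, 5 were above 0 over all mice and 0 within mice, against 36.9% and 23.5% of all genes. Calr, the chaperone calreticulin, differed by 0.57 (SE 0.78) and −0.31, and Pdia3, the disulfide isomerase of the loading complex, by 0.080 (SE 0.94) and −1.09. Of the other heavy chain genes 7 of 15 were tested, with 5 above and 2 below 0 over all mice, and of 12 transcription genes 3 were above and 9 below. The 3 genes of the list with the smallest limma p were Tpp2, Mr1 and Rfxank. Tpp2, a cytosolic peptidase, differed by −3.60 (SE 1.22, limma adjusted p = 0.437), with medians of 6.03 in low-label, 381 in labelled dormant and 630 in proliferating cells. Rfxank, a subunit of the RFX complex, differed by −2.27 (SE 0.98, limma adjusted p = 0.477). It was above 0 in 0 of 6 low-label, 12 of 22 labelled dormant and 19 of 29 proliferating cells, with low medians of 0, 0.77 and 8.58. The 0 of 6 allows a share of up to 50% of cells (3 counts, counting error only). Mr1, a class I-like gene whose product presents vitamin metabolites, differed by 1.54 (SE 0.63, limma adjusted p = 0.456). It was above 0 in 1 of 6 low-label and 6 of 22 labelled dormant cells but in 0 of 29 proliferating ones. That count of 0 allows a share of up to 10.3% of cells with Mr1 above 0 (3 counts, counting error only, with cells of 1 mouse not independent) and sets no limit on cells that express it below detection. Mr1 was the one gene of this list that DESeq2 called (adjusted p = 0.00617), against 2.48% of all genes called higher. It passed the filter of at least 6 cells above 0 through dormant cells only, so its difference could only lie above 0. The call is therefore no support for a difference between the states, and Mr1 was not tested within mice.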

How the data were processed

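Single cells were sequenced full-length with ERCC spike-ins (SMARTer cDNA, Nextera XT), per the labels' protocols. RSEM, STAR, mm10 and GRCm38 are listed without versions in the submitters' processing notes. The deposited values were a signal, reads per gene and cell that the authors normalised with BASiCS, per the series text. Each of the 57 cells had 100% of its nonzero gene values at whole multiples of a single step (tolerance 0.01 reads), so whole reads, 945351 to 5306777 per cell, could be recovered from the deposited signal and summed per mouse and state. The 118 spike-in rows were left out of tests. No 2 cells correlated above 0.891.

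The mean of log2(value + 1) per mouse and state was fitted with limma (3.58.1, trend and robust) for genes above 0 in at least 6 cells. Over all mice there was no block, and in the 4 mice with both states the mouse was a fixed block, with Benjamini-Hochberg adjustment over all genes at 0.05. Pairing comes from the labels, which give each cell's mouse. The correlation of paired deviations was 0.341, 0.167, 0.0032 and −0.0064 in mice 369, 452, 360 and 1185. edgeR (4.0.16) and DESeq2 (1.42.0) on recovered read counts were alternatives, because the deposited values are normalised. The text names all 9 members, 6 of 7 fixed pathway genes (1 is not reported here) and the 3 others of the list with the smallest p over all mice, 4 of the 5 genes most like the mean of the members over all and over labelled cells, and class markers. The members, lists, the eCFP threshold and most alternatives were chosen with earlier results of these data known, and the threshold of 37 spike-ins after the values were seen. The limma fits were tested on simulated data, with cells redrawn across mice and states. Such data keep neither the variation between mice nor the pairing, so they do not show how the fits perform in this design. Software was Python 3.11.15 with numpy 2.4.6, pandas 2.3.3, matplotlib 3.10.9 and scipy 1.17.1, and R 4.3.3.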

Additional observations from a re-analysis of the deposited data

Results flagged for a closer look

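In 18 groups of 6 per-mouse means tested for a sample far from the others, 2 stood out, where chance alone marks about 1 in 20 groups. Both were dormant means of mouse 452, which rest on 3 cells. The H2-K1 mean of mouse 452 dormant cells was 3.75, while the nearest other dormant mean was 8.74 and the highest 10.996. The Tapbp mean of the same cells was 0, while the nearest other dormant mean was 5.57 and the highest 8.79.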

How the results depend on the processing

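No member passed the adjusted threshold with any tool, scaling, filter, pseudocount or set of cells or mice that was run, and the differences of H2-D1, H2-T23, Tap2 and Nlrc5 kept their direction wherever they were tested, as did Tapbp within mice. Over all mice, directions reversed without leukocyte-rich cells for H2-K1 (−0.19), B2m (−0.71), Tap1 (−0.44), Tapbp (−0.71), Erap1 (−0.93) and the median of the members (−0.44), and without low-label cells for B2m (−0.28), Tap1 (−0.23) and Tapbp (−0.073). With means weighted by cells B2m was −0.065, Tap1 −0.32 and Tapbp −0.067. With fewer than 37 spike-ins Tap1 was −0.41, Tapbp −0.65 and the median of the other pathway genes −0.14. With at least 37, Erap1 was −0.065, the median of the members 2.22 and the genes called 22. With 2 or more cells per mouse and state Tapbp was −0.29. DESeq2 called 302 genes. The median of all genes was 0.060 by DESeq2, 0.050 by edgeR, 0.35 without leukocyte-rich and 0.090 without low-label cells. Within mice, without leukocyte-rich and without low-label cells, H2-K1 was −2.34 and −0.52, B2m −0.94 and −0.70, Tap1 −0.78 and −0.80, and the median of the members −0.94 and −0.038, and Erap1 was 0.088 with fewer than 37 spike-ins. Leaving out 1 mouse gave Erap1 −0.22 to 1.47 over all mice (below 0 without mouse 244 or 268) and −1.13 to 0.088 within mice (above 0 without 369), and B2m −0.39 to 0.75 within mice (below 0 without 360). Over all mice it also gave Tapbp 0.31 (without 288) to 2.32 (without 452), B2m 0.15 (without 360) to 0.83 (without 1185), Tap1 0.71, Tap2 0.48 and Nlrc5 0.28 (each without 360) and H2-K1 2.95 (without 452). The same gave 0.87 to 1.48 for the median of the members over all mice, and 0.020 (without 360) to 1.05 within mice. With the mouse as a random block for the pairing over all mice, H2-D1 was 2.43 (limma adjusted p = 0.377) and the median of the members 1.05, and without the block within mice H2-D1 kept 1.11 (limma adjusted p = 0.642), and no call changed. At an unadjusted p under 0.05, limma's count over all mice went from 1126 genes to 194 without leukocyte-rich, 227 without low-label, 739 with fewer and 527 with more spike-ins and 646 without mouse 360. Within mice it went from 1069 to 345 and 361 without those cells, 517 without mouse 369, 610 without 360, 1870 without 1185 and 537 on the log2 of the mean. The causes were not tested. Few mice, some with 1 or 2 cells of a state, limit the precision.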
